A study of Mus musculus with 2 samples.

Results

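miR-690 and miR-1949 (mmu-miR-690 and mmu-miR-1949 in the array design) are the pair of miRNAs whose signal differed most, in favour of array 1, between arrays of exosomes from cisplatin-treated LLC cells. LLC stands for Lewis lung carcinoma, an established tumour line of the mouse. They are 2 of the 1881 mouse miRNAs on the array and 2 of the 201 that were detected on both arrays. They were chosen on this readout: among miRNAs detected on both arrays they had the largest log2 difference, array 1 minus array 2, before any scaling between the arrays. That difference is therefore given below as a description, without a test. Exosomes are small membrane vesicles that cells shed into their medium. The LLC cells had been held for 24 h in medium free of serum with cisplatin at 5 µM, a DNA-damaging platinum compound, and RNA of the vesicles was hybridised to one-colour (Cy3) arrays. The 2 samples, from independent experiments, form 1 group, with an array for each, numbered as their labels number them. Untreated exosomes were not analysed here, so the values show what was seen in these exosomes and how well it repeated, not an effect of the drug.

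A miRNA is a short RNA that guides Argonaute proteins to matching mRNAs, and its seed, bases 2 to 8, does most of the target recognition. miR-690 has been reported in exosomes of alternatively activated macrophages, where it was linked to insulin sensitivity. miR-1949 is a rodent miRNA of which less is known. In the RefSeq annotation of the GRCm38.p6 assembly the gene of miR-690, Mir690, lies within the span of Fgf12, a protein-coding gene of the fibroblast growth factor family. Mir1949 lies within the span of Snhg4, a non-coding host gene of small nucleolar RNAs, and Matr3, which encodes the nuclear matrix protein matrin 3, is the next protein-coding gene after it. Whether either miRNA lies in an exon or an intron was not determined here. The sources used here do not name the genome build of the array design.

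The miR-690 sequence is shown because its probes are read against it and because it tells which other miRNAs could look alike to a probe. It is RefSeq's record, at chr16:28599940-28599961 on the minus strand of GRCm38.p6. The first line has the seed in capitals, and the second has the hairpin from which it is cut, with the mature miRNA in capitals.
miR-690: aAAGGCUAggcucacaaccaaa
Mir690 hairpin: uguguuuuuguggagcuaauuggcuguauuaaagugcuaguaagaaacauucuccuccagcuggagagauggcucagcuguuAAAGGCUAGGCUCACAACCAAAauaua
The mature miRNA takes bases 83 to 104 of the 109-base hairpin, 5 bases from its 3′ end. Its GC content was 45.45%, against a median of 59.09% over the 168 miRNAs detected on both arrays that had a RefSeq sequence. In all, 1608 of the 1881 names matched a RefSeq sequence, miR-1949 not among them.

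None of the other 1607 matched miRNAs carried the miR-690 seed. miR-700-5p was the only one with the same bases 2 to 7, and it was detected on neither array. The longest unbroken run of bases that any other matched miRNA shared with miR-690 was 8, which 4 miRNAs reached, each with a different run. They are printed with the shared run in capitals.
miR-7080-3p: cAGGCUCACcccuccguucccu
miR-28b: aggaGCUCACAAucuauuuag
miR-7074-5p: ugggaagAGGCUAGGgcuccagu
miR-5615-3p: ugucucagaaaACAACCAAgga
Only miR-7080-3p of these 4 was detected. It stood at 3.86 on array 1 and at 3.57 on array 2 in log2 signal, a difference of 0.28. As the choice took the largest differences, a smaller value was fixed by it, and whether related RNAs bound the miR-690 probes was not tested. The other 3 were detected on neither array, with log2 signals of 0 to 0.77.

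miR-1949 was the brighter member in the files, which says nothing of the amounts, since brightness depends on the probe. It had a log2 signal of 8.41 on array 1 and one of 5.32 on array 2, a difference of 3.09 or 8.54-fold. For miR-690 the log2 signals were 6.87 and 4.13 in the same order, a difference of 2.74 or 6.69-fold. Each value is the mean over 2 probes of the log2 processed intensity of the spots, which the scanner software had corrected for background but which was not adjusted between arrays. Both members were thus several-fold dimmer in the second sample, while each stayed detected there. Fewer vesicles in the sample, less of a miRNA per vesicle and a technical difference between the arrays cannot be told apart. A miRNA counts as detected when at least 1 of its probes has a total signal over 3 times its error. Of all 1881 miRNAs, 10.7% were detected on both arrays, 16.6% on array 1 and 10.7% on array 2. The total signal that the files list for miR-690 was 50.4 with an error of 3.70 on array 1 and 7.72 with an error of 1.04 on array 2. For miR-1949 it was 212 with an error of 18.6 on array 1 and 25.7 with an error of 2.43 on array 2. In error units the total of miR-690 fell from 13.6 to 7.43, and that of miR-1949 from 11.4 to 10.5. The listed error grows with the signal, so these multiples moved less than the totals did.

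Each member has 2 probes and each probe 15 spots, spread over the array. The miR-690 probe A_54_P1983 had a mean intensity of 135 ± 10.0 on array 1 (SD, 15 spots) and 22.0 ± 3.56 on array 2 (SD, 15 spots). Its fellow, A_54_P1984, gave 103 ± 7.41 on array 1 and 14.4 ± 3.07 on array 2 (SD, 15 spots each). The spots of the arrays did not overlap for either probe: the dimmest on array 1 was at 86.2 and the brightest on array 2 at 27.3. The miR-1949 probe A_54_P00004606 had 867 ± 21.3 on array 1 (SD, 14 spots) and 106 ± 6.72 on array 2 (SD, 15 spots). Probe A_54_P00004605 of the same miRNA had 134 ± 6.60 on array 1 (SD, 15 spots) and 15.2 ± 2.43 on array 2 (SD, 14 spots). Here too the spots of the arrays stood apart for each probe. The choice of members for the largest difference favours such gaps, and they were not counted for other probes. Of the 340 probes detected on both arrays, 294 had a higher mean log2 signal on array 1. One spot per array was left out for miR-1949 because the scanner software marked it as a population outlier, and none for miR-690. These SDs cover the spread of spots on 1 array only. Spots are repeat readings of 1 sample, so they are not replicates of the exosome preparation.

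**Figure D1:**
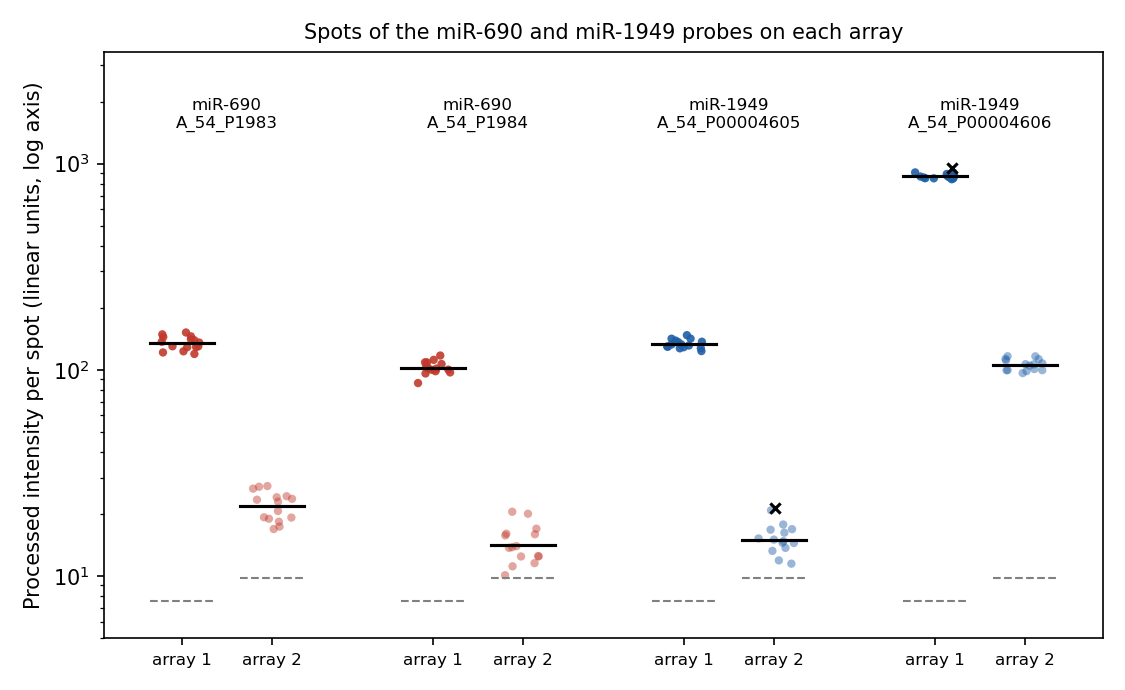
Processed intensity of each spot (log axis) for the probes of miR-690 (red) and miR-1949 (blue) on both arrays, with black bars at the mean of log2 intensity, crosses for outlier spots left out, and grey dashes at the mean plus 3 SD of the negative controls. For each of the 4 probes all spots of array 1 lie above all spots of array 2, a gap that the choice of members favours. On array 2 the dimmest miR-690 spot, at 10.1, lies close to the dash at 9.81.

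The probes of a miRNA differed in brightness but gave nearly the same difference between the arrays. On array 1 the brighter miR-1949 probe was 6.50 times as bright as the dimmer, and on array 2 it was 6.98 times as bright. Their log2 differences between the arrays were 3.04 for the brighter and 3.15 for the dimmer. The miR-690 probes stood 1.31-fold apart on array 1 and 1.52-fold on array 2, with log2 differences of 2.63 and 2.86 between the arrays. In both miRNAs the dimmer probe had the larger difference, by 0.12 for miR-1949 and 0.22 for miR-690. Since both probes entered the choice, their likeness is a description. Of the 340 probes detected on both arrays, those of miR-1949 ranked 1 and 2 in the unscaled difference, and those of miR-690 ranked 3 and 5. A probe of miR-6944-5p, at 2.78, stood between them.

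The same spot can be set against itself on both arrays, since the layouts matched. Of the 30 spot pairs of miR-690, all were brighter on array 1, by 2.11 to 3.33 log2 units. The 28 usable pairs of miR-1949 were all brighter on array 1 as well, by 2.61 to 3.57. The array was also divided into 4 regions at its middle row and column. Median differences for miR-690 were 2.46 in the upper left, 2.81 in the upper right, 2.78 in the lower left and 2.90 in the lower right region, over 6 to 8 spots each. For miR-1949 they ran from 2.97 to 3.15, over 3 to 10 spots. These are the spot values whose mean chose the members, so they describe how the difference was spread over the array and give it no further support.

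The background under the members' spots moved little and the other way. The background subtracted at the miR-690 probes averaged 41.4 and 38.6 intensity units on array 1 and 43.8 and 40.9 on array 2. At the miR-1949 probes it averaged 39.6 and 39.0 on array 1 and 41.7 and 41.0 on array 2. It was 1.94 to 2.44 units higher on array 2, whereas the processed intensity was 88.2 to 762 units lower there. The background still matters on array 2, where it exceeded the processed intensity at 3 of the 4 probes. Without its subtraction the raw spot signals of the miR-690 probes were 2.68 and 2.55 times as bright on array 1, and those of miR-1949 3.05 and 6.17 times. Negative-control spots, 1000 per array, averaged 0.47 ± 2.36 on array 1 and 1.37 ± 2.81 on array 2 (SD over spots). Every member spot that was kept lay above their mean plus 3 SD, which was 7.55 on array 1 and 9.81 on array 2. Still, 3 of the 1000 negative-control spots on array 2 lay above the dimmest miR-690 spot, and 1 above the dimmest kept miR-1949 spot. On array 2 only 21 of 30 miR-690 spots and 24 of 30 miR-1949 spots were marked well above background, against 30 of 30 for each on array 1. The spots that were not so marked all belonged to the dimmer probe of each miRNA. No member spot was saturated or marked as uneven.

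The miRNAs detected on both arrays shifted as a group in the same direction as the members, though by less. Of the 201 miRNAs detected on both arrays, 175 (87.1%) were brighter on array 1 before scaling. Without the members, the remaining 199 had a median difference of 0.77, with an interquartile range of 0.18 to 1.62. Over 4-fold brighter on array 1 were 27 of the 201 (13.4%), both members among them, as the choice of members fixes. Just outside the choice stood miR-221-3p, a miRNA often raised in carcinomas, with a difference of 2.55. It was followed by let-7f-5p with 2.44, miR-6944-5p with 2.41, let-7d-5p with 2.36 and miR-210-3p, which hypoxia induces, with 2.35. The step from miR-690 to miR-221-3p was 0.20, smaller than the step of 0.35 from miR-1949 to miR-690. Where detection on 1 array sufficed, miR-1949 still ranked 1 and miR-690 ranked 5. miR-7226-5p (3.09), miR-7032-5p (2.95) and miR-6997-5p (2.75) then came between them, and miR-222-3p (2.70) and miR-378a-3p (2.65) followed. These 5 were not detected on array 2, with log2 signals there of 0.80 to 1.60, under the negative-control limit of 3.29, so their differences are not measured on both sides. Of those named before them, miR-221-3p (3.12) and miR-6944-5p (3.21) were detected on array 2 but also lay under that limit.

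**Figure D2:**
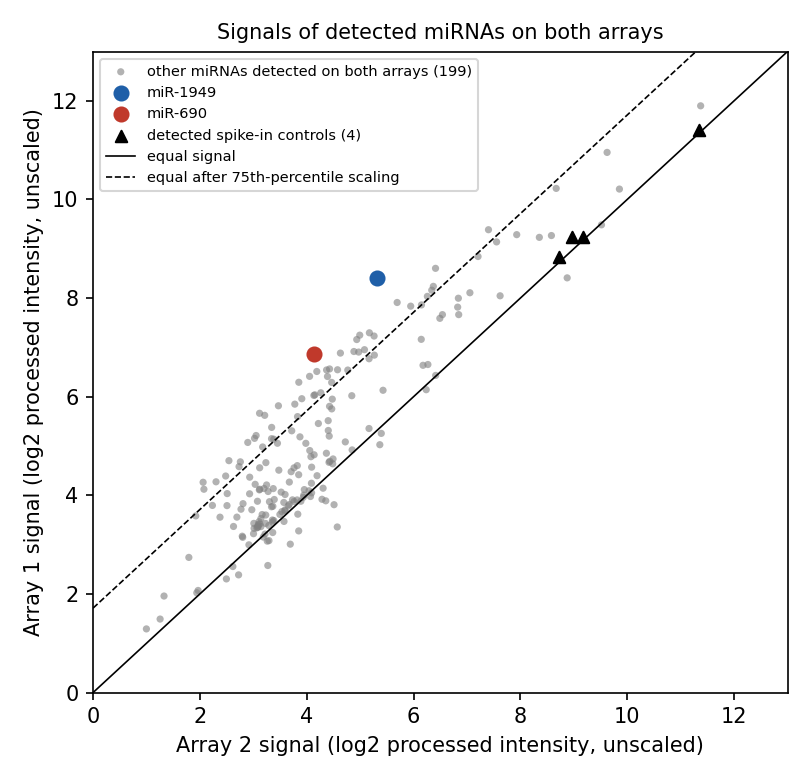
Unscaled log2 signal on array 1 against array 2 for the 201 miRNAs detected on both arrays and 4 spike-in controls, with lines for equal signal before (solid) and after (dashed) scaling. miR-1949 (8.41 against 5.32) and miR-690 (6.87 against 4.13) lie farthest above the solid line and above the dashed line too, while the spike-in controls lie near the solid one.

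The members were set beside miRNAs of like signal, as a description only. Since the members were chosen for the largest difference, a miRNA matched to one of them on array 1 had to be brighter on array 2, and signals of different probes do not compare amounts. The 3 miRNAs detected on both arrays with array 1 signals nearest to miR-690 were let-7i-5p, miR-15b-5p and miR-125b-5p, at 6.84 to 6.91. On array 2 they stood at 4.63, 4.97 and 5.27, against 4.13 for miR-690. For miR-1949 the nearest were miR-5622-3p, miR-3082-5p and miR-6969-5p, at 8.24 to 8.60. They had array 2 signals of 8.88, 6.37 and 6.41, against 5.32 for miR-1949. In the plane of both signals the miRNAs nearest to miR-690 were let-7e-5p, miR-23a-3p, miR-19b-3p, let-7d-5p and let-7i-5p, at Euclidean distances of 0.37 to 0.50 log2 units, with differences between the arrays of 2.13 to 2.36. Those nearest to miR-1949 were miR-29a-3p, let-7b-5p, miR-1187, miR-7005-5p and miR-21a-5p, at distances of 0.63 to 1.06, with differences of 1.71 to 2.22. miR-1949 thus had no neighbour as close as the nearest 5 of miR-690. This likeness rests on 2 arrays. miR-29a-3p, the miRNA of the study's title, differed by 2.22 and miR-21a-5p, abundant in many tumours, by 1.82, less than either member.

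The miRNAs of nearby registry number were looked up as well. Those detected on both arrays had to differ by less than the members, because the choice of members took the largest differences. Of the other 41 entries from miR-680 to miR-719, 5 were detected on both arrays, 5 on array 1 only and 31 on neither. The 5 detected on both were miR-709, miR-714, miR-702-3p, miR-710 and miR-681, and they differed by 0.16 to 1.02, against 2.74 for miR-690. miR-705, detected on array 1 only, differed by 2.42. Of the other 51 entries from miR-1927 to miR-1971, only miR-1947-3p was detected on both arrays, with a difference of 0.42, against 3.09 for miR-1949. miR-1969 and miR-1934-3p were detected on array 1 only, with 2.22 and 1.55, and 48 on neither. Both members have names without a 5p or 3p arm, as do 17.1% of all miRNAs on the array and 25.4% of those detected on both arrays.

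Signals outside the miRNA probes were set beside the members. The 4 detected spike-in controls were 0.06 to 0.27 log2 units brighter on array 1. Controls named hur and mr_1, whose meaning the sources used here do not state, were brighter on array 1 by 0.74 to 2.83 in the 5 detected on both arrays. hur_6, with log2 signals of 10.95 and 8.12, was the only detected control with a difference between those of miR-690 and miR-1949. As a reference for the tumour line and its exosomes, miR-21a-5p, miR-29a-3p, miR-31-5p and let-7b-5p were looked up. All 4 were detected on both arrays, with differences of 1.77 to 2.22, which does not tell the cell of origin. Of 8 myeloid and lymphoid miRNAs, 0 were detected on both arrays. Array 1 alone detected miR-155-5p and miR-142a-3p, and neither array detected miR-223-3p, miR-142a-5p, miR-150-5p, miR-146a-5p, miR-511-3p or miR-511-5p. The summed intensity of these 8 was 41.7 on array 1 and 21.7 on array 2. Their part in the signal of miR-690 was not tested. Neither array detected any of 4 red cell miRNAs (both arms of miR-144, miR-486a-5p and miR-451a) or either arm of miR-122, the hepatocyte miRNA. Of all miRNAs, 10.7% were detected on both arrays and 16.6% on array 1. At such shares a list this short can easily hold no detected miRNA, so these counts do not tell whether other cells contributed.

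How far apart the members stood depended on how the arrays were put on a common scale. With the spike-in controls set equal, the differences were 2.65 for miR-690 and 3.0 for miR-1949, against 2.74 and 3.09 unscaled. Scaling each array to its 75th percentile over the 201 detected miRNAs removed 1.71 log2 units from every difference. The scaled log2 signal of miR-1949 was then 7.55 on array 1 and 6.17 on array 2, or 6.86 ± 0.98 (SD, n = 2). For miR-690 it was 6.02 on array 1 and 4.99 on array 2, or 5.50 ± 0.73 (SD, n = 2). The differences that remained were 1.38 (2.61-fold) and 1.03 (2.04-fold). They were still the largest in this direction, but 68 of the 201 miRNAs now stood farther apart than miR-1949 in either direction, and 93 farther than miR-690. The farthest were miR-8105 (-2.93), miR-125a-3p (-2.41) and miR-466q (-2.41), which had been brighter on array 2. Over 2-fold apart were 98 miRNAs (48.8%), and over 4-fold apart were 10 (4.98%), neither member among the latter. After quantile normalization, miR-1949 differed by 1.70, the largest difference toward array 1, and miR-690 by 1.43, at rank 3. By size they then ranked 3 and 13, and 44 miRNAs (21.9%) were over 2-fold apart. Toward array 1, miR-221-3p at 1.54 stood between them after quantile normalization. The pair therefore led the 201 miRNAs in the unscaled signals it was chosen on and, toward array 1, after 75th-percentile scaling, which shifts all differences alike. It was not the leading pair after quantile normalization or by the size of scaled differences. Without scaling, miR-690 ranked 3 with the brightest probe, 4 with the listed total signal or a floor of 0.1, 7 with raw signals (a setting chosen after seeing the data) and 14 with normexp background correction at an offset of 50.

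**Figure D3:**
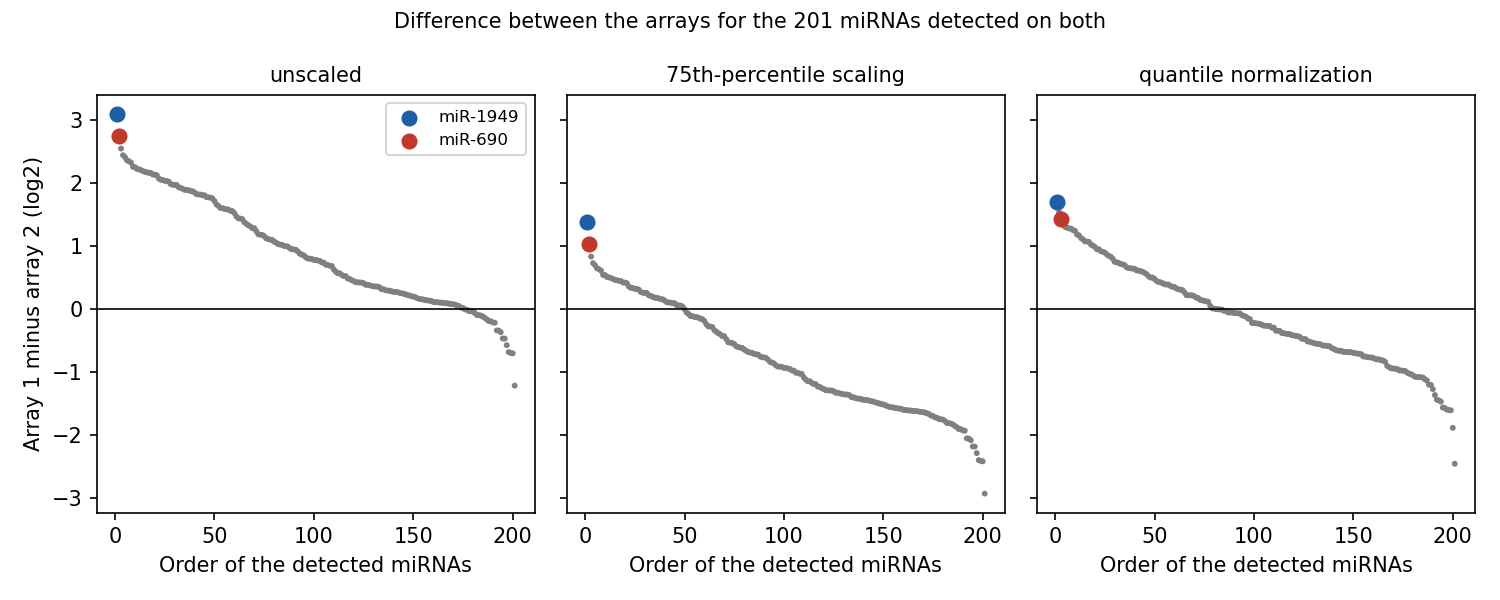
Log2 difference, array 1 minus array 2, of the 201 miRNAs detected on both arrays in falling order, without scaling, after 75th-percentile scaling and after quantile normalization. miR-1949 (blue) leads all 3 panels, at 3.09, 1.38 and 1.70, and miR-690 (red) is at 2.74, 1.03 and 1.43, while after scaling the farthest miRNAs lie at the lower end, down to -2.93.

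In the authors' deposited table of log2 values, whose centring the sources used here do not state, miR-1949 had 7.18 for array 1 and 5.16 for array 2. miR-690 had 4.62 and 3.37 there. In the authors' deposited table the differences were thus 2.01 and 1.25, ranks 1 and 8 toward array 1 among the 201 miRNAs, whose median difference was -0.27. Both columns of the authors' deposited table have a median of -3.32, its lowest value.

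**Figure D4:**
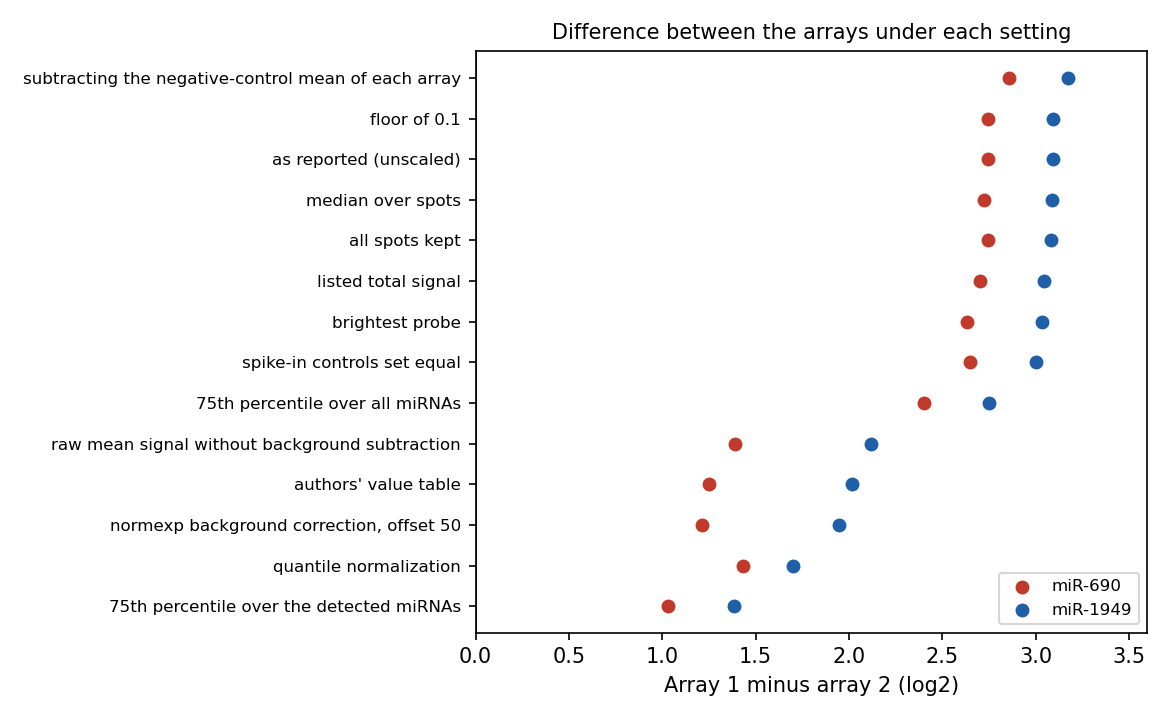
Log2 difference, array 1 minus array 2, of miR-690 (red) and miR-1949 (blue) as reported and under 13 other settings of background correction, summary and scaling. All points lie above 0, from 1.03 to 2.86 for miR-690 and from 1.38 to 3.17 for miR-1949, and miR-1949 lies to the right of miR-690 in each row.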

How the data were processed

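RNA of LLC exosomes was profiled on 1 Agilent one-colour mouse miRNA array for each of 2 samples, grouped by their labels. Per the labels' protocols the dye was brought in with a kit that amplifies RNA into cRNA, but the headers name a scanner protocol for miRNA arrays, and the sources used here do not settle which labelling the signals come from. The deposited scanner files hold spot intensity on a linear scale from Agilent Feature Extraction 10.7.1.1, from which a spatially detrended background was subtracted array by array, per the file headers, and which is not normalized between arrays. They also hold 0 or 1 flags and the software's p-value for each spot against background, per the file headers; that p-value was not used. In the authors' deposited value table the values are log2, a scale inferred from the numbers themselves. It served as an alternative only.

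Population outlier spots, as the software marks them, were dropped. The log2 intensities, with values under 1 set to 1, were averaged within each probe and then across a miRNA's probes. For scaling, the 75th percentile of the 201 miRNAs that both arrays detected (6.29 and 4.58) was subtracted per array, and the mean of these percentiles was added back. Each array had 58594 spots, 56430 of them for miRNAs, and no spot was saturated. With 2 arrays the precision is limited, and no test was run.

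Members, lists and comparisons were chosen with earlier results of these data known. The text names the members, the 5 miRNAs next in difference, the 5 nearest in both signals, the 3 nearest on array 1, detected registry neighbours, miR-29a-3p, miR-21a-5p and marker lists. miRNAs sharing bases with miR-690 and the control hur_6 were chosen after their values were seen. Sequences are RefSeq's (GRCm38.p6). Python 3.11.15, numpy 2.4.6, pandas 2.3.3, matplotlib 3.10.9, R 4.3.3 and limma 3.58.1 (normexp) were used. The averaging over spots and probes and the percentile scaling were tested on simulated spots without background. The other steps, and signals as low as those of array 2, were not tested in this way.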

Additional observations from a re-analysis of the deposited data

How the results depend on the processing

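The difference between the arrays kept its direction in all 13 other settings tried for each member, 2 of them chosen after seeing the data. It was called moved where it changed by more than the SD over spot pairs, 0.31 for miR-690 and 0.20 for miR-1949. Values that moved, for miR-690 and miR-1949 in turn, were 1.21 and 1.95 with normexp at an offset of 50, 1.39 and 2.12 for raw signals (chosen after seeing the data), 1.03 and 1.38 with the 75th percentile over detected miRNAs, 2.40 and 2.75 with that over all miRNAs, 1.43 and 1.70 with quantile normalization, and 1.25 and 2.01 in the authors' deposited table. By their construction, the offset and the unsubtracted background draw differences of low signals toward 0. With each array's negative-control mean subtracted (chosen after seeing the data) the differences were 2.86 and 3.17. Ranked toward array 1 over 12 settings, miR-1949 came first in 11 and was second for the listed total signal, and miR-690 ranked 2 to 14, the lowest with normexp.

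The mean scaled level of miR-690, 5.50, moved to 6.86 with normexp, 6.61 with raw signals, 4.30 with the listed total signal and 3.99 in the authors' deposited table, which are on other scales. That of miR-1949, 6.86, moved to 8.24 with its brightest probe. A level was called moved where it changed by more than its SD over the arrays, 0.73 for miR-690 and 0.98 for miR-1949. That SD grows with the difference between the arrays, for which the members were chosen, so it is a wide limit. Within it lay the miR-1949 levels of 7.75 with normexp, 7.57 with raw signals and 6.21 with the listed total signal. Its level of 6.17 in the authors' deposited values lay within it too. On array 1 and array 2 in turn, the scaled levels were 6.02 and 4.99 for miR-690 and 7.55 and 6.17 for miR-1949. The scaling itself used both arrays, so these are not levels with an array left out. Unscaled, the levels were 6.87 and 4.13 for miR-690 and 8.41 and 5.32 for miR-1949. Both members stayed detected under each of the 3 other detection rules and on each array alone. The strictest of these rules asked that most of a miRNA's spots be flagged as clear of background, and 87 of the 1881 miRNAs met it. Raising the error multiple from 3 to 6 left 149, and a limit of 3 SD over the negative controls left 158. Taken singly, array 1 detected 312 and array 2 detected 202. No paired analysis was possible because there was only 1 group. On array 2, signals of 14.4 to 22.0 over a background of 40.9 to 43.8 limit the precision of both miR-690 probes and of the dimmer miR-1949 probe.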
